A study of Homo sapiens with 4 samples.

Results

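Oxidative phosphorylation is carried out by 5 enzyme complexes of the inner mitochondrial membrane. Complexes I to IV pass electrons from NADH and succinate to oxygen and, except for complex II, pump protons, and complex V, the ATP synthase, makes ATP as the protons flow back. The subunits come from both genomes of the cell: the mitochondrial genome encodes a few hydrophobic core proteins of complexes I, III, IV and V, the nuclear genome encodes the rest, and the proteins of both are assembled together. Prostate epithelial tumours and their cell lines use this pathway beside glycolysis, and the transcription factors NRF1, GABPA and MYC are known regulators of its nuclear genes.

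The genes described here are the subunit genes of these complexes in the deposited table, chosen by symbol alone. They are 92 of the 43622 genes in the table, 13 encoded by mitochondrial DNA and 79 by the nuclear genome. Complex I holds 43 of them (36 nuclear), complex II 4, complex III 10 (9 nuclear), complex IV 14 (11 nuclear) and complex V 21 (19 nuclear). The table prints 74 under the symbols of the rule and the other 18, all of the ATP synthase, under older symbols such as ATP5A1 for ATP5F1A, USMG5 for ATP5MK and ATP5G2 for ATP5MC2, and the printed symbols are used below.

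The study compared PC3 cells, an established line from a metastatic prostatic adenocarcinoma, with PC3-shp14ARF cells, in which a retroviral shRNA against p14ARF was selected as a stable pool with hygromycin. p14ARF is a tumour suppressor protein of the CDKN2A locus, and MLN4924 blocks NEDD8 conjugation and with it the cullin-RING ubiquitin ligases. Each line received DMSO or 1 µM MLN4924 for 3 days, which gives 4 conditions of 3 RNA-seq libraries: Ctrl (PC3, DMSO), MLN (PC3, MLN4924), shARF (PC3-shp14ARF, DMSO) and Both (PC3-shp14ARF, MLN4924). No control shRNA is named for Ctrl and MLN, so the shRNA, the vector, the selection and the separate passage of the pool cannot be told apart. Libraries are named by the number in their column heading (Ctrl 1, 2 and 3, MLN 1, 2 and 5, shARF 1, 3 and 5, Both 2, 3 and 4), whose meaning is not given, and whether they came from separate cultures is not stated, so p-values may measure only technical spread.

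Values are TPM, the share of a library's mapped transcripts that a gene takes once its length is allowed for, scaled to 1000000 per library, and read depth is not known from them. Fold changes are log2 differences of TPM + 0.1, given with their standard error, from limma fits whose p-values were adjusted by the Benjamini-Hochberg method over 19932 genes, and "called" below means that this adjusted p was under 0.05. Over these genes the median log2 change was between −0.08 and 0.05 in the pairwise comparisons. The share of all genes whose groups did not overlap was not computed, so counts of members with or without overlap are descriptions only. CDKN2A, the targeted locus, stood at 177 to 190 TPM in Ctrl and 58.2 to 60.9 TPM in shARF (log2 change −1.63 ± 0.035, adjusted p = 2.24e-05), and at 100 to 133 TPM in MLN and 41.2 to 54 TPM in Both. The gene's value also holds the transcripts of p16INK4A, which share exons with those of p14ARF. Of the markers set for the line, KRT8, KRT18, EPCAM and VIM were present in every library (lowest value 18.3 TPM), KLK3 was listed at 0 in all 12 libraries and TMPRSS2, PTPRC and ALB at 0.332 TPM or below, and PECAM1, an endothelial gene, was at 10.9 to 12.4 TPM in Ctrl and 0.132 to 1.94 TPM in the other conditions. TPM describes a bulk culture, in which fewer cells making a transcript and less of it per cell cannot be told apart.

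The mitochondrially encoded members were by far the larger share of the RNA. Their 13 mRNAs together took 9.22% ± 1.53 of all TPM in Ctrl and 9.51% ± 2.39 in MLN, and 7.1% ± 1.11 in shARF and 10.7% ± 1.47 in Both (SD, n = 3). The 79 nuclear members took 1.95% ± 0.0748, 2.16% ± 0.06, 2.49% ± 0.0579 and 2.35% ± 0.0907 in the same order. Over all 12 libraries MT-CO1, the catalytic subunit of complex IV, had the highest mean of the members (18189 TPM), and MT-ND6, the 1 member transcribed from the opposite strand, the lowest of the mitochondrially encoded ones (82.6 TPM). Among nuclear members the highest and lowest of each complex were NDUFS5 (813 TPM) and NDUFV3 (16.8 TPM) in complex I, SDHD (324 TPM) and SDHC (34.1 TPM) in complex II, CYC1 (870 TPM) and UQCRB (59.5 TPM) in complex III, COX8A (1741 TPM) and COX6C (240 TPM) in complex IV, and ATP5B (1924 TPM) and ATP5L2 (0.0783 TPM) in complex V. ATP5L2 is the 1 member below the filter of a mean of 0.1 TPM, so 91 of 92 were tested, and ATP5J2-PTCD1 is a readthrough gene that shares sequence with ATP5J2.

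Mitochondrial genes lie so close that some share bases, and a read in the shared bases belongs to both. The annotation (GENCODE v44, GRCh38) places MT-ATP8 and MT-ATP6, membrane subunits of the ATP synthase, in 46 shared bases, and MT-ND4L and MT-ND4, proton-pumping subunits of complex I, in 7. The sequences are shown because the values of these neighbours are not independent; capitals mark the shared bases, read 5′ to 3′ on the heavy-strand transcript, at chrM:8527-8572 and within chrM:10748-10778.
MT-ATP8 and MT-ATP6: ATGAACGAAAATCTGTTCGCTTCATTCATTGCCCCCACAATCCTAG
MT-ND4L and MT-ND4: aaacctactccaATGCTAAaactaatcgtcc
In both runs the capitals open with the ATG start codon of the downstream gene. MT-ND6 is transcribed against the others, and since the strandedness of the libraries is not stated, its reads and those of antisense transcripts through the same bases cannot be told apart. The others lie on the same strand of the same small genome. The mitochondrially encoded values of a library are therefore not independent, and a shared direction below is not a separate result for each gene.

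The first question was how the mitochondrially encoded members responded to MLN4924 in PC3 cells. None of the 13 was called in MLN against Ctrl, where 32.2% of all genes tested were called higher and 29.4% lower. Their median log2 change was 0.05, as it was over all genes, none had an unadjusted p below 0.05, adjusted p ran from 0.381 to 0.988, and all 13 overlapped between the groups. None was called under the other scalings or with any 1 library left out. Their sum was 75454, 105475 and 95579 TPM in Ctrl 1, 2 and 3 and 122719, 81875 and 80824 TPM in MLN 1, 2 and 5. MLN 1 was the highest of these libraries and Ctrl 1 the lowest, and the groups overlapped. Without MLN 1 the median log2 change of the 13 was −0.13, and without Ctrl 1 it was −0.11.

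PC3-shp14ARF cells without MLN4924 had lower mean values of all 13 mitochondrially encoded members than Ctrl, but none passed the test as fitted here. In shARF against Ctrl, in which 21% of all genes were called higher and 20.4% lower, their log2 changes ran from −0.69 to −0.01 with a median of −0.36, against 0.00 over all genes. The lowest adjusted p was 0.0786, for MT-ND4, and 1 of the 13 had an unadjusted p below 0.05. With a filter of 1 TPM on the mean 3 of the 13 were called lower, and 1 was in the fit over 12 libraries and 1 without the trend. With 1 library left out the median of the 13 ran from −0.52 (without Ctrl 1) to −0.21 (without Ctrl 2 or shARF 5). With the number in the column heading fitted as a replicate block the median was 0.02. MT-ND4 stood at 9454, 14818 and 12702 TPM in Ctrl and 8482, 8053 and 6235 TPM in shARF. All 3 shARF values were below all 3 Ctrl values, which held for MT-ND4L and MT-CO1 too and for none of the other 10. The share of all genes for which this held was not computed.

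In PC3-shp14ARF cells the mitochondrially encoded members were higher with MLN4924. In Both against shARF all 13 had log2 changes above 0 (0.19 to 1.90, median 0.48 against −0.04 over all genes), and 5 were called higher and none lower, beside 28.3% and 32.8% of all genes. Their common direction is not 13 separate results, since their values in a library are not independent. MT-ND6, a core membrane subunit of complex I, stood at 35.1, 43.2 and 33.3 TPM in shARF and 219, 112 and 107 TPM in Both. All Both values lay above all shARF values, and the log2 change was 1.90 ± 0.29 (adjusted p = 0.002). MT-ND4L stood at 4752, 5120 and 3782 TPM against 8985, 8062 and 11057 TPM (1.04 ± 0.19, adjusted p = 0.00368). MT-ND4 stood at 8482, 8053 and 6235 TPM against 13006, 14415 and 17017 TPM (0.97 ± 0.2, adjusted p = 0.00633). These 2 share the bases printed above, and neither overlapped between the groups. MT-CO1 stood at 13977, 14303 and 11245 TPM against 20146, 19531 and 26145 TPM (0.73 ± 0.22, adjusted p = 0.0291). MT-CO2, the complex IV subunit that takes electrons from cytochrome c, stood at 10921, 11061 and 8321 TPM against 13703, 14851 and 17732 TPM (0.61 ± 0.2, adjusted p = 0.0395). Both complex IV genes were also without overlap, as were MT-CO3 and MT-ND5, which were not called. The number called was 8 with a filter of 1 TPM, MT-CO3, MT-ND5 and MT-ATP8 among them, and 1 with no filter on low values.

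These calls were of unequal firmness. With 1 library of either group left out, 3 or 4 of the 13 were called. MT-ND6 was called under all 14 alternatives, MT-ND4L and MT-ND4 under all but the fit without a filter on low values, and MT-CO1 and MT-CO2 were lost whenever any 1 library was left out, without that filter and with a pseudocount of 0.01. The members with the smallest changes were MT-CYB, the 1 mitochondrially encoded subunit of complex III (4737, 4592 and 3520 TPM in shARF and 4607, 4420 and 5594 TPM in Both), and MT-ND3 (4943, 4033 and 2968 TPM against 4228, 4736 and 4836 TPM). Their log2 changes were 0.19 ± 0.17 and 0.24 ± 0.2, and the groups overlapped. MT-ND1, MT-ND2, MT-ATP6 and MT-ATP8 had log2 changes of 0.31 to 0.49 with overlapping groups and adjusted p of 0.0812 to 0.19.

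**Figure D1:**
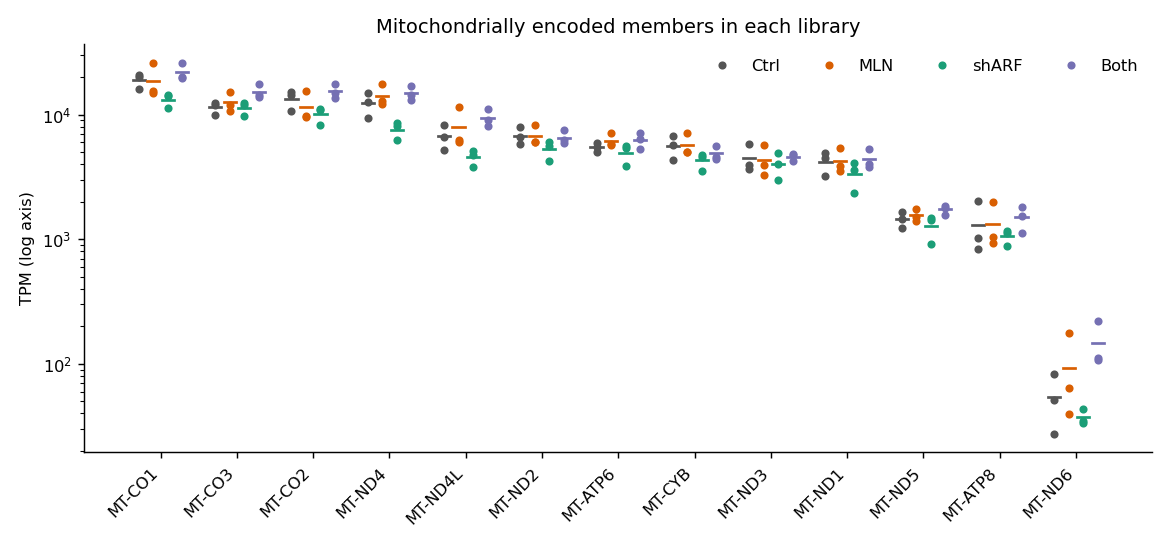
TPM (log axis) of the 13 mitochondrially encoded members in the 12 libraries, ordered by mean level; points are libraries, coloured by condition, and short lines are condition means. The shARF points of MT-ND4, MT-ND4L and MT-CO1 lie below those of the other conditions, and MT-ND6 is the lowest gene, at 27.4 to 219 TPM.

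Whether the response to MLN4924 differed between the lines was tested by the interaction over the 12 libraries, (Both − shARF) − (MLN − Ctrl), in which 11.2% of all genes were called higher and 17.1% lower. None of the 13 was called: their median was 0.39 (−0.09 over all genes), all 13 were above 0, 4 had an unadjusted p below 0.05 and the lowest adjusted p was 0.0662. This count changed with the libraries and the filter: 5 of the 13 were called higher without MLN 1, 2 without Ctrl 1 and none with any other library left out, and 3 with a filter of 1 TPM on the mean and all 12 libraries kept. Between Both and MLN, the treated groups, none of the 13 was called (median 0.17, lowest adjusted p 0.32, none with an unadjusted p below 0.05), beside 11.8% of all genes called higher and 20.6% lower.

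The mitochondrial ribosomal RNAs, transcribed from the same heavy-strand promoter region but not subunits, moved in the same comparison. MT-RNR2, the large rRNA, stood at 2295, 2245 and 1820 TPM in shARF and 5250, 5807 and 6838 TPM in Both, with no overlap (1.49 ± 0.15, adjusted p = 0.000304). MT-RNR1, the small rRNA, rose from 386 to 534 TPM to 723 to 1041 TPM (0.94 ± 0.17, adjusted p = 0.00418). Relative to the 13 mRNAs, rRNA was 0.0365 ± 0.00149 in shARF and 0.0641 ± 0.00236 in Both (SD, n = 3), so in these libraries it was higher by more than the mRNAs were. The paper does not state whether rRNA was removed or polyadenylated RNA selected before sequencing. The ratio therefore describes what the libraries kept, and rRNA levels in the cells cannot be read from it. In PC3 cells this ratio was 0.038 ± 0.00528 in Ctrl and 0.0479 ± 0.0043 in MLN, again without overlap. The exact two-sided permutation p was 0.1 for each, the smallest that 3 against 3 libraries can give.

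The ratio of summed mitochondrially encoded to summed nuclear TPM put both genomes on 1 scale. It was 4.06, 5.27 and 4.83 in Ctrl 1, 2 and 3, 5.7, 3.67 and 3.83 in MLN 1, 2 and 5, 3.19, 3.04 and 2.34 in shARF 1, 3 and 5, and 4.01, 4.48 and 5.15 in Both 2, 3 and 4. All shARF libraries lay below all of the other 9. The mitochondrial sum alone did overlap between shARF (58173 to 77509 TPM) and Ctrl (75454 to 105475 TPM). It was 0.771 times that of Ctrl (exact two-sided permutation p = 0.3), and the nuclear sum was 1.28 times that of Ctrl. The mean log2 ratio was lower by −0.73 in shARF than in Ctrl (0.604 times) and higher by 0.67 in Both than in shARF (1.6 times), each with an exact two-sided permutation p of 0.1, the smallest possible, and 0.2 after Benjamini-Hochberg adjustment over the 4 comparisons. MLN differed from Ctrl by −0.12 (p = 0.7 by the same exact test) and Both from MLN by 0.07 (exact p = 0.8), with overlapping groups, and the latter changed sign when the median replaced the sum or 1 of 3 libraries was left out.

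**Figure D2:**
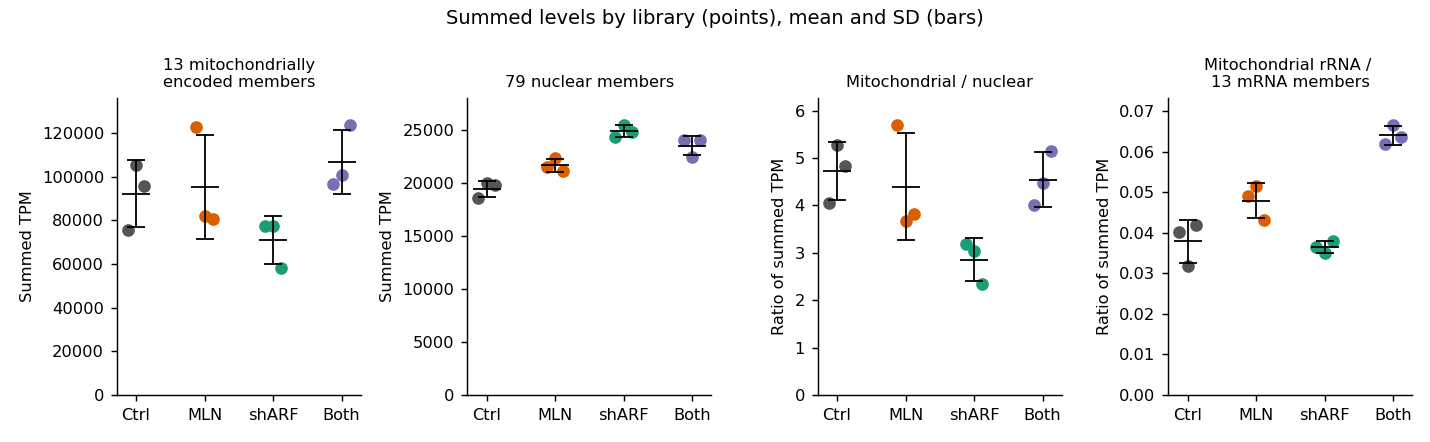
Summed TPM of the 13 mitochondrially encoded and the 79 nuclear members, their ratio, and the ratio of the 2 mitochondrial rRNAs to the 13 mRNAs; points are libraries, bars the mean and SD of each condition (n = 3), and every axis starts at 0. The nuclear sums do not overlap between Ctrl (18605 to 19995 TPM), MLN (21119 to 22297 TPM) and shARF (24307 to 25463 TPM). The mitochondrial sums of Ctrl overlap with those of MLN and with those of shARF.

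The nuclear members gave a different picture, and shARF against Ctrl was the most one-sided comparison: 46 of the 78 tested (59%) rose and 1 fell, beside 21% and 20.4% of all genes. Their median log2 change was 0.28, against 0.00 over all genes, and 74 of 78 were above 0. The summed nuclear TPM was 18605, 19995 and 19779 in Ctrl and 24307, 25463 and 24818 in shARF, 1.28 times higher with no overlap (exact permutation p = 0.1, the smallest possible). Mitochondrially encoded mRNAs took 7.1% of TPM in shARF and 9.22% in Ctrl, which bears on the share left for nuclear genes. With a total without mitochondrial genes 36 nuclear members rose and 1 fell (median 0.24). Under median-of-ratios scaling 39 rose and 1 fell (median 0.27). The summed nuclear TPM was not recomputed under either. With 1 library left out 33 to 43 members rose. Without Ctrl 1, 2 members fell in place of 1. The rise was seen in each complex: 19 of 36 in complex I, 3 of 4 in complex II, 8 of 9 in complex III, 9 of 11 in complex IV and 7 of 18 in complex V.

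COX5A, a structural subunit of complex IV, had the largest change of the members that rose, from 348, 322 and 348 TPM in Ctrl to 515, 572 and 534 TPM in shARF (0.67 ± 0.055, adjusted p = 0.000736). CYC1, the cytochrome c1 of complex III, stood at 750, 747 and 753 TPM and at 1152, 1190 and 1185 TPM (0.65 ± 0.033, adjusted p = 0.00019). NDUFB10, an accessory subunit of the membrane arm of complex I, stood at 249, 245 and 265 TPM and at 408, 384 and 388 TPM (0.64 ± 0.043, adjusted p = 0.000427). ATP5G3, which encodes the c subunit of the ATP synthase rotor, stood at 214, 215 and 223 TPM and at 339, 334 and 336 TPM (0.63 ± 0.025, adjusted p = 9.85e-05). None of the 4 overlapped between the groups, and each changed by much more than its replicates differed. ATP5B, the catalytic beta subunit and the most abundant nuclear member, stood at 1867, 1720 and 1865 TPM and at 2525, 2465 and 2553 TPM (0.47 ± 0.06, adjusted p = 0.00305).

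**Figure D3:**
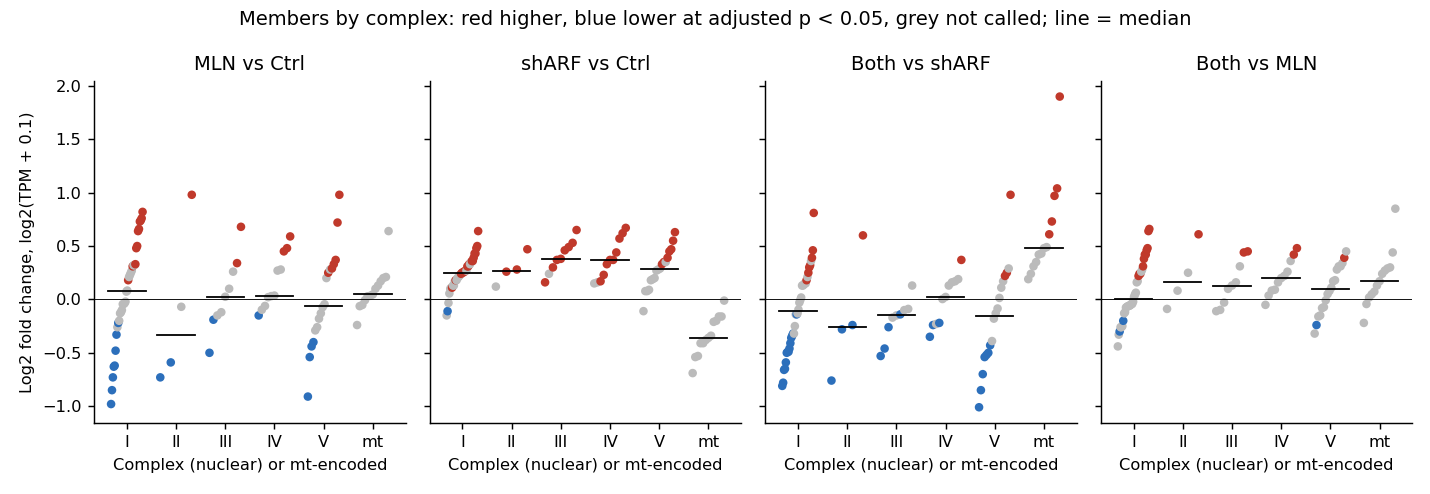
Log2 fold change (vertical axis, on log2(TPM + 0.1)) of each tested member in the 4 pairwise comparisons, by complex for nuclear members and together for the mitochondrially encoded ones (mt). Red points were called higher, blue lower and grey not called, and the lines are medians: in shARF against Ctrl the nuclear medians lie between 0.25 and 0.38 and the mitochondrial median at −0.36.

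MLN4924 in PC3 cells moved nuclear members in both directions within each complex. In complex IV 3 were called higher, and the 1 called lower, COX4I1, was close to the threshold (−0.15 ± 0.053, adjusted p = 0.0499). In MLN against Ctrl 23 of 78 rose (29.5%) and 17 fell (21.8%), which is near or below the 32.2% and 29.4% of all genes, and their median of 0.03 was close to the 0.05 over all genes. The summed nuclear TPM was 1.11 times higher, at 21514, 22297 and 21119 TPM in MLN, without overlap with Ctrl (exact permutation p = 0.1, the smallest possible).

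In complex II, succinate dehydrogenase, the members moved in opposite directions. SDHD, a membrane anchor subunit, rose from 186, 213 and 203 TPM in Ctrl to 402, 381 and 407 TPM in MLN (0.98 ± 0.065, adjusted p = 5.86e-05). SDHC, the other membrane anchor, fell from 33.1, 38.7 and 34.2 TPM to 24.7, 23.8 and 21.6 TPM (−0.59 ± 0.082, adjusted p = 0.00121), and SDHA, the catalytic flavoprotein, fell by 0.73 on the log2 scale. The anchors form a pair in the complex, and their values moved apart, with no overlap between the groups for either.

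The other members with the largest rises were small accessory subunits. USMG5, a small membrane subunit of the ATP synthase, rose from 142, 202 and 188 TPM to 423, 341 and 287 TPM (0.98 ± 0.19, adjusted p = 0.0047). NDUFB3 of complex I rose from 156, 171 and 224 TPM to 398, 337 and 247 TPM (0.82 ± 0.21, adjusted p = 0.016), a call lost when any of 4 libraries (Ctrl 1, Ctrl 2, MLN 1 or MLN 2) was left out. NDUFA2, of the matrix arm of complex I, rose from 72.1, 102 and 88.1 TPM to 171, 145 and 127 TPM (0.76 ± 0.16, adjusted p = 0.00664). All MLN values of these genes lay above all Ctrl values, and MLN 1 was the highest library for each.

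Among the falls, NDUFS6, an accessory subunit of the matrix arm that binds zinc, went from 177, 179 and 179 TPM to 78.5, 96.6 and 96.2 TPM (−0.98 ± 0.088, adjusted p = 0.00019). ATP5G2, another c-subunit gene of the ATP synthase, went from 230, 236 and 217 TPM to 101, 138 and 127 TPM (−0.91 ± 0.12, adjusted p = 0.000966). NDUFV3, a small flavoprotein-fraction subunit of complex I, went from 22, 19.8 and 18.7 TPM to 11.1, 10.5 and 11.7 TPM (−0.85 ± 0.081, adjusted p = 0.000245). NDUFA10, of the membrane arm, went from 29.4, 29 and 30.2 TPM to 17.7, 18.6 and 16.9 TPM (−0.73 ± 0.054, adjusted p = 8.57e-05). All 4 were without overlap and stayed called under each of the 15 alternatives. The genes for the c subunit, which encode the same mature protein, differed: ATP5G2 fell, ATP5G1 rose, and ATP5G3 stood at 200, 204 and 217 TPM in MLN against 214, 215 and 223 TPM in Ctrl (−0.072 ± 0.05, adjusted p = 0.252).

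The direction in MLN against Ctrl went with transcript length. Among the 39 nuclear members with the shorter canonical transcripts (GENCODE v44, median 586 bases) 17 rose and 4 fell, with a median log2 change of 0.25. Among the 39 longer ones (median 1613 bases) 6 rose and 13 fell, with a median of −0.12. Across the 78 genes Spearman's rho between length and log2 change was −0.42, and it was −0.17 across the 8869 protein-coding genes whose mean level reached 10 TPM. In shARF against Ctrl it was 0.02 for the members and −0.14 for those genes. In Both against shARF, the response to MLN4924 in the other line, it was weaker, at −0.26 and −0.04. In Both against MLN it was 0.25 and 0.14. Genes of a library share its fragment sizes and its conversion to TPM by length, so these are descriptions across genes that are not independent, and the part of transcript length in the calls was not tested.

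**Figure D4:**
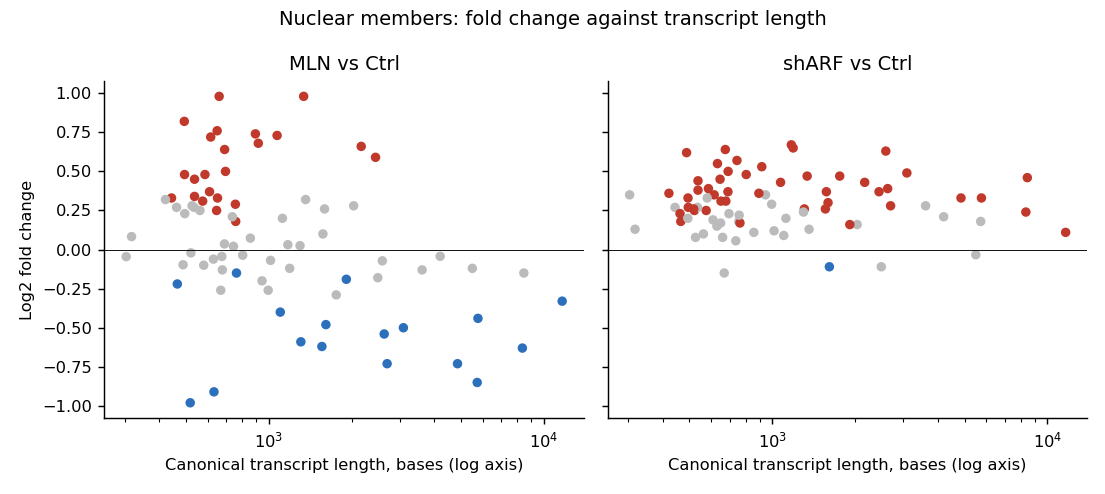
Log2 fold change (vertical axis) against canonical transcript length in bases (log axis) for the 78 tested nuclear members in MLN against Ctrl and in shARF against Ctrl; red points were called higher, blue lower, grey not called. On the left red points lie mostly at short and blue points at long transcripts (17 and 6 rises among shorter and longer ones), and on the right red points lie at all lengths (22 and 24).

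Promoters were read in RefSeq's 300-base windows (250 before to 50 after the start, GRCh38.p14), which were matched for 63 of the 79 nuclear members. The core letters of the NRF1 motif, GCGCANGCG on either strand, were in 33.3% of the members' windows and in 11% of the 15843 protein-coding windows. For the ETS core CCGGAAG, which GABPA binds, the shares were 31.7% and 14.2%, for the YY1 letters AAGATGGC 17.5% and 3.91%, and for the SP1 letters GGGCGG 61.9% and 58.5%. A match describes letters and is no binding site. Of the 17 nuclear members named by the rule that have a window, 3 hold the NRF1 core before the start site, and these are SDHD, which rose, and NDUFS6 and ATP5G2, which fell, in MLN against Ctrl. Their 60 bases around it are shown for that contrast, 5′ to 3′ on the gene's strand with the core in capitals, from chr11:112086738-112086797 (plus), chr5:1801336-1801395 (plus) and chr12:53676090-53676149 (minus).
SDHD: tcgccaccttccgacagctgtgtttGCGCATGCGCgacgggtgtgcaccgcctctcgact
NDUFS6: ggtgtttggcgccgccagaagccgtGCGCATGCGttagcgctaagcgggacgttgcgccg
ATP5G2: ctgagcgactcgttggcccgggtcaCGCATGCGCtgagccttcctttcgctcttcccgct
The capitals of SDHD run to 10 letters because the core is present on both strands there, shifted by 1 base.

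In PC3-shp14ARF cells MLN4924 lowered more nuclear members than it raised. In Both against shARF 12 of 78 rose (15.4%) and 31 fell (39.7%), beside 28.3% and 32.8% of all genes, and the median was −0.13 against −0.04. Under median-of-ratios scaling, which moved the median over all genes from −0.04 to 0.026, 18 rose and 23 fell. The summed nuclear TPM went from 24307, 25463 and 24818 in shARF to 24069, 22468 and 24007 in Both. This was 0.945 times (exact permutation p = 0.1, the smallest possible), a small fall without overlap in TPM. TPM is a share of a fixed total, of which mitochondrially encoded mRNAs took 7.1% in shARF and 10.7% in Both. With a total without mitochondrial genes, 17 nuclear members rose and 27 fell (median −0.07 against 0 over all genes). The summed nuclear TPM was not recomputed on that total, so whether its fall and the lack of overlap remain there was not tested.

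ATP5G2 fell from 332, 366 and 304 TPM in shARF to 189, 167 and 142 TPM in Both (−1.01 ± 0.12, adjusted p = 0.000683). ATP5A1, the alpha subunit of the catalytic head of the ATP synthase, fell from 144, 143 and 141 TPM to 87, 77.9 and 72.8 TPM (−0.85 ± 0.068, adjusted p = 0.000121). NDUFV3 fell from 22.2, 22.1 and 24.3 TPM to 12.7, 13.3 and 13.1 TPM (−0.81 ± 0.054, adjusted p = 6.25e-05). NDUFS6 fell from 201, 212 and 227 TPM to 120, 114 and 139 TPM (−0.78 ± 0.087, adjusted p = 0.000475). ATP5G2, NDUFV3 and NDUFS6 are also the members with the largest falls in PC3 cells. USMG5 rose from 179, 201 and 177 TPM to 342, 353 and 404 TPM (0.98 ± 0.084, adjusted p = 0.000162). NDUFB9, an accessory subunit of the membrane arm, rose from 267, 272 and 271 TPM to 490, 418 and 519 TPM (0.81 ± 0.084, adjusted p = 0.000353). SDHD rose from 276, 298 and 260 TPM to 447, 442 and 374 TPM (0.60 ± 0.09, adjusted p = 0.00178). NDUFA6, of the matrix arm, rose from 214, 222 and 186 TPM to 292, 284 and 279 TPM (0.46 ± 0.073, adjusted p = 0.00212). None of these 8 overlapped between the groups, and all stayed called under each of the 14 alternatives.

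The responses of the lines, which share no library, could be set side by side. Of the 23 nuclear members that rose in PC3 cells, 8 also rose in PC3-shp14ARF cells and none fell, and of the 17 that fell, 16 also fell. A further 15 fell in PC3-shp14ARF cells without being called in PC3 cells, and 4 rose. The matching counts over all genes were not computed, so these counts cannot be read as particular to the members. Across the 78 members Pearson's r between the log2 changes was 0.83, beside 0.77 across all 19932 genes tested, which is a description across genes.

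The interaction was called for 21 nuclear members, 2 higher and 19 lower (2.56% and 24.4%, beside 11.2% and 17.1% of all genes), with a median of −0.13 against −0.09. Under median-of-ratios scaling, in which the median over all genes was 0.00735, it was called for 5 higher and 10 lower, so the balance of directions depended on the scaling. The smallest adjusted p was that of NDUFS3, a core subunit of complex I, at 70.2, 71.8 and 70.1 TPM without and 121, 116 and 117 TPM with MLN4924 in PC3 cells and 88.8, 88.9 and 95 TPM without and 115, 106 and 115 TPM with it in PC3-shp14ARF cells (−0.44 ± 0.07, adjusted p = 0.000689). It rose in both lines, by less in PC3-shp14ARF cells (0.30 against 0.74). ATP5G3 stood at 200 to 217 TPM in MLN against 214 to 223 TPM in Ctrl and fell from 334 to 339 TPM in shARF to 226 to 245 TPM in Both (interaction −0.45 ± 0.072, adjusted p = 0.000775). NDUFB10 likewise stood at 218, 259 and 262 TPM in MLN, within reach of the Ctrl values, and fell from 384 to 408 TPM in shARF to 238 to 257 TPM in Both (−0.61 ± 0.1, adjusted p = 0.00097). NDUFC2, of the membrane arm of complex I, rose in PC3 cells from 153, 165 and 167 TPM to 235, 246 and 289 TPM, and stood at 203, 228 and 224 TPM in shARF and 229, 208 and 205 TPM in Both (−0.69 ± 0.12, adjusted p = 0.000985). For ATP5G3 and NDUFB10 the higher values were those of shARF, with the other 3 conditions at 200 to 245 TPM and 218 to 265 TPM. SDHC and NDUFB5 were the 2 called higher: SDHC fell by less in PC3-shp14ARF cells (−0.24 against −0.59), and NDUFB5, of the membrane arm of complex I, was at 38.9 to 49.9 TPM in Ctrl and MLN, 51.5 to 56.9 TPM in shARF and 66.8 to 73 TPM in Both.

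**Figure D5:**
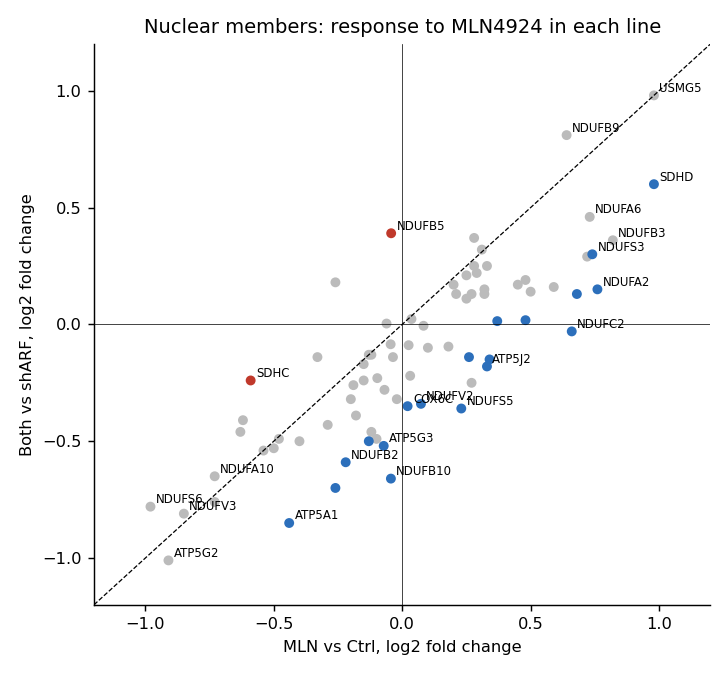
Log2 fold change with MLN4924 in PC3-shp14ARF cells (Both against shARF, vertical) against that in PC3 cells (MLN against Ctrl, horizontal) for the 78 tested nuclear members; the dashed line is equality, red and blue points have an interaction called higher and lower, grey points not called. Most coloured points lie below the line, 19 blue to 2 red.

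Between the treated groups fewer members differed. In Both against MLN 17 of 78 were higher (21.8%) and 3 lower (3.85%), beside 11.8% and 20.6% of all genes, with a median of 0.09 against −0.08. Under median-of-ratios scaling 31 were higher and none lower. The count rested in part on single libraries, with 9 higher without MLN 2 and 10 without Both 2. NDUFB9 stood at 340, 287 and 274 TPM in MLN and 490, 418 and 519 TPM in Both (0.66 ± 0.12, adjusted p = 0.00939). NDUFB5 stood at 49.1, 47.6 and 38.9 TPM and at 73, 70.4 and 66.8 TPM (0.64 ± 0.099, adjusted p = 0.00595), and SDHC at 24.7, 23.8 and 21.6 TPM and at 37.1, 35.1 and 34.9 TPM (0.61 ± 0.066, adjusted p = 0.00205). These 3 were higher in every Both library. COX6B1, a complex IV subunit on the intermembrane side, stood at 422, 368 and 439 TPM and at 663, 548 and 513 TPM (0.48 ± 0.12, adjusted p = 0.0289), a call lost when any 1 library but Both 4 was left out. The 3 called lower were NDUFV2 (−0.30 ± 0.073), ATP5J2 (−0.24 ± 0.071) and NDUFB2 (−0.20 ± 0.059), at adjusted p of 0.0253, 0.0486 and 0.0481. None of the 3 was called under median-of-ratios scaling, and all were lost in the fits without MLN 1, MLN 2, Both 2 or Both 3.

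Genes around the pathway were read from lists that hold no member. Of 47 assembly factors tested, 16 rose and 17 fell in MLN against Ctrl (34% and 36.2%, near the 32.2% and 29.4% of all genes), and 23 rose and 5 fell in shARF against Ctrl (48.9% and 10.6%, beside 21% and 20.4%). NUBPL, which delivers iron-sulfur clusters to complex I, fell from 15.2, 15.6 and 15.6 TPM in Ctrl to 3.66, 3.9 and 3.46 TPM in MLN (−2.05 ± 0.074, adjusted p = 8.44e-06) and from 13.6 to 14.7 TPM in shARF to 3.23 to 4.5 TPM in Both. COA6, a copper-related complex IV assembly factor, rose from 34.6, 32 and 35.3 TPM to 153, 138 and 111 TPM (1.97 ± 0.12, adjusted p = 4.75e-05) and from 34.5 to 39.8 TPM to 127 to 161 TPM. ACAD9, of the complex I assembly intermediate, fell from 38.4, 35 and 37.3 TPM to 12.6, 14.4 and 14.7 TPM (−1.40 ± 0.076, adjusted p = 2.95e-05). These changes were larger than those of any subunit in the same comparison, and none of the 3 overlapped between the groups.

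Of 33 genes that maintain mitochondrial DNA or process its RNA, 12 rose and 9 fell in MLN against Ctrl (36.4% and 27.3%, near the 32.2% and 29.4% of all genes), and 15 rose and none fell in shARF against Ctrl (45.5% and 0%, beside 21% and 20.4%). LRPPRC, which stabilises mitochondrial mRNAs, fell from 73.5, 75.6 and 76.7 TPM in Ctrl to 48.1, 48.2 and 45.8 TPM in MLN (−0.67 ± 0.042, adjusted p = 4.96e-05) and from 86.1 to 91.9 TPM in shARF to 50.3 to 55.9 TPM in Both. TFAM, the packaging and transcription factor of mitochondrial DNA, ranged from 42.7 to 44.4 TPM across Ctrl libraries, 48.5 to 52 across MLN, 55.2 to 57.6 across shARF and 48.1 to 59.6 across Both. It was called higher in MLN (0.20 ± 0.046) and in shARF (0.38 ± 0.027) than in Ctrl. POLRMT, the mitochondrial RNA polymerase, was higher in MLN than in Ctrl (0.47 ± 0.1, adjusted p = 0.00758) and was not called in the other 3 pairwise comparisons. ELAC2, which cuts the 3′ ends of mitochondrial tRNAs, fell by 0.90 on the log2 scale in MLN, and MTERF1 and FASTKD5 rose by 0.88 and 0.82.

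Of 11 regulators tested, 3 rose and 5 fell in MLN against Ctrl (27.3% and 45.5%, beside 32.2% and 29.4% of all genes). MYC stood at 803, 713 and 703 TPM in Ctrl against 141, 155 and 164 TPM in MLN. In PC3-shp14ARF cells it stood at 1171, 1158 and 1220 TPM with DMSO and 269, 272 and 249 TPM with MLN4924. The 4 conditions did not overlap: the log2 change was −2.27 ± 0.082 with MLN4924 in PC3 cells, −2.17 ± 0.053 in PC3-shp14ARF cells and 0.68 ± 0.065 in shARF against Ctrl (adjusted p = 8.72e-06, 2.18e-06 and 0.00117). HIF1A fell from 425, 430 and 409 TPM to 125, 129 and 140 TPM with MLN4924 in PC3 cells (−1.68 ± 0.058). NRF1 stood at 10.7 to 12.4 TPM in Ctrl and 14.1 to 15.7 TPM in shARF (0.38 ± 0.075, adjusted p = 0.013) and fell in Both against shARF (−0.49 ± 0.078). GABPA stood at 19.8 to 21.2 TPM in Ctrl and 17.9 to 18.7 TPM in MLN (−0.16 ± 0.05, adjusted p = 0.0302). PPARGC1A, a coactivator of mitochondrial genes, was at 0.116 TPM or below in every library, and ESRRG was at 0.571 TPM or below.

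Some alternative subunits had larger changes than any standard subunit in MLN against Ctrl. COX6B2, the testis form of the complex IV subunit COX6B1, stood at 1.02, 0.863 and 0.757 TPM in Ctrl and 29, 35 and 32.2 TPM in MLN (5.04 ± 0.13, adjusted p = 3.68e-06), and at 0.0832 to 0.285 TPM in shARF and 16.7 to 19.3 TPM in Both (6.10 ± 0.28). COX6B1 itself stood at 407 to 463 TPM in Ctrl and 368 to 439 TPM in MLN, so the alternative form remained the far less abundant of the pair. C15orf48, which encodes a small protein related to the complex IV subunit NDUFA4, fell from 41.9, 33 and 34.6 TPM in Ctrl to 6.2, 4.92 and 3.22 TPM in MLN (−2.95 ± 0.24, adjusted p = 0.000134). It stood at 0.339 to 0.995 TPM in shARF (−5.66 ± 0.35 against Ctrl, adjusted p = 0.000343) and at 0.107 to 0.416 TPM in Both. NDUFA4L2, another relative of NDUFA4, stood at 4.21 to 6.13 TPM in Ctrl and 2.6 to 3.53 TPM in shARF (−0.79 ± 0.19, adjusted p = 0.0236), and COX7A2L, which has been linked to the joining of complexes III and IV, rose by 0.76 in MLN and 0.86 in Both against shARF. COX4I2, the lung and hypoxia form of COX4I1, was listed at 0 in all 12 libraries. In all, 4 of the 9 alternative forms tested rose and 1 fell in MLN against Ctrl (44.4% and 11.1% of a short list, beside 32.2% and 29.4% of all genes).

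Genes of mitochondrial mass and import moved with the nuclear subunits in shARF. Of 22, 17 rose and 1 fell in shARF against Ctrl (77.3% and 4.55%, beside 21% and 20.4% of all genes, median 0.36), and 6 rose and 8 fell in MLN against Ctrl (27.3% and 36.4%, beside 32.2% and 29.4%). VDAC1, the outer membrane channel, stood at 362, 348 and 371 TPM in Ctrl, 195, 212 and 224 TPM in MLN and 457, 442 and 488 TPM in shARF (0.36 ± 0.048 in shARF, adjusted p = 0.00355). SLC25A6, an ADP/ATP carrier that exports the product of complex V, stood at 605 to 617 TPM in Ctrl and 809 to 915 TPM in shARF (0.47 ± 0.057, adjusted p = 0.00253) and fell in MLN (−0.83 ± 0.066). HSPA9, the matrix chaperone of import, rose in both comparisons (0.74 and 0.33).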

How the data were processed

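RNA-seq was done by the study in PC3 and PC3-shp14ARF cells with DMSO or MLN4924, with 3 libraries per condition, of which the headings but not the numbering are described. The authors trimmed reads, mapped them to hg38 and quantified genes in CLC Genomics Workbench v23.0.5. The deposited table gives TPM as the authors exported it, 43622 genes with each library summing to 1000000. The authors' differential expression used DESeq2 on counts, which were not used here. Read length, layout, strandedness and depth are not given in the sources used here, so no interval from counting is printed.

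Members were found by symbol, also through RefSeq synonyms for older ATP synthase symbols. Genes whose mean over 12 libraries reached 0.1 TPM were kept, and log2(TPM + 0.1) was fitted in R 4.3.3 by limma 3.58.1 (lmFit, eBayes with trend), in the 6 libraries of each pairwise comparison and in 12 for the interaction, with Benjamini-Hochberg adjustment over all genes. No count test was run, since no whole reads can be recovered from it. Sums were compared with exact two-sided permutation tests in SciPy 1.17.1. The fit was tested on simulated data. Nuclear members were named as the 4 largest changes in each direction without overlap per comparison, the 4 smallest interaction p-values and the highest and lowest of each complex. Other genes were named as the 3 largest changes per list in MLN against Ctrl, plus regulators and alternative subunits set by name. A few others (ATP5G1, SDHA, COX4I1, members named by a count) were added after their values were seen. The members and lists were chosen with earlier results of these data known. Results of 1 member and 1 marker are not reported here.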

Additional observations from a re-analysis of the deposited data

Results flagged for a closer look

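For 14 of the members named above the response to MLN4924 differed between the lines by the interaction test (limma, adjusted p below 0.05), and each value below is the log2 response in PC3-shp14ARF cells minus that in PC3 cells. It was below 0 for NDUFC2 (−0.69), NDUFA2 (−0.61), NDUFB10 (−0.61), NDUFS5 (−0.60), NDUFS3 (−0.44), NDUFV2 (−0.41) and NDUFB2 (−0.37) of complex I. It was also below 0 for SDHD of complex II (−0.39), COX6C of complex IV (−0.37) and ATP5J2 (−0.51), ATP5G3 (−0.45) and ATP5A1 (−0.42) of complex V. It was above 0 for NDUFB5 of complex I (0.43) and SDHC of complex II (0.35). The adjusted p ran from 0.000689 for NDUFS3 to 0.0432 for NDUFA2. Some of these members were named for their interaction p or fold change in these libraries, so the count of 14 is a description. Among the 78 nuclear members tested 2 were called higher and 19 lower, beside 11.2% and 17.1% of all genes. Under median-of-ratios scaling 5 were called higher and 10 lower, so not all of these calls hold under it.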

How the results depend on the processing

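The counts of members called are given as higher and lower. Without a filter on low values 28 rose in shARF against Ctrl, 9 rose in Both against shARF, 9 and 0 were called in Both against MLN, and 1 was higher in the interaction. With a filter of 1 TPM 4 fell in shARF against Ctrl and 6 were higher in the interaction, 3 of each mitochondrially encoded. Median-of-ratios scaling gave 31 and 0 in Both against MLN and 5 and 10 in the interaction, and a total without mitochondrial genes gave 0 lower in Both against MLN and 4 higher in the interaction. Without the trend 2 fell in shARF against Ctrl and 0 in Both against MLN, and 1 fit over 12 libraries gave 6 lower in Both against MLN. The causes of these shifts were not tested. With each library left out in turn the ranges were 18 to 26 and 15 to 18 in MLN against Ctrl, 33 to 43 and 1 to 2 in shARF against Ctrl, 12 to 18 and 26 to 32 in Both against shARF, 9 to 15 and 0 to 2 in Both against MLN, and 1 to 8 and 15 to 21 in the interaction. The difference in log2 genome ratio between Both and MLN was −0.04 with medians and −0.05 to 0.27 with 1 library left out. Members by printed symbol only, a choice made after the data were seen, gave counts of 17 and 14, 40 and 1, 14 and 25, 17 and 2, and 2 and 14 in the same order.

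With the number in the column heading as a replicate block, 7 rose and 6 fell in MLN against Ctrl, 0 and 0 in shARF against Ctrl, and 0 were higher in the interaction. The block leaves 1 residual degree of freedom in each of these pairwise fits. Same-numbered libraries correlated in their deviations from the group means at −0.42 to 0.18 across genes, and differently numbered ones at −0.37 to 0.35. Deviations from means of 3 libraries cannot decide whether a number marks a shared culture or batch. Both against shARF and Both against MLN share 1 number, so no block could be fitted there.

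Of 37 values of named members past the threshold, 21 stayed past it under each alternative, 16 were lost under at least 1, and none changed sign. Of 8 not past it, 3 passed under at least 1 alternative, MT-ATP8, MT-CO3 and MT-ND5 in Both against shARF. Depth is not in TPM, so what it limits cannot be stated, and 3 libraries per condition cannot reach a permutation p below 0.1.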
